A study of Homo sapiens with 16 samples.

Results

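The p53-regulated metabolic and redox genes described here are 10 genes that have been reported as p53 targets and that act in metabolism or redox balance: TIGAR, FDXR, SCO2, TP53I3, GLS2, CPT1C, ALDH4A1, PANK1, LPIN1 and SAT1. They, like the gene lists used below, were chosen by name with earlier results of these data known, so counts among them are not independent of these data. They are 10 of the 23396 genes listed in any of the 4 tables used. The study measured poly(A) RNA by sequencing in U2OS, a human osteosarcoma line. Its cells had been transfected with siControl, a control siRNA, or with siRFX7, which targets RFX7, and were kept for 24 h in the solvent DMSO or in Nutlin-3a at 10 µM. All 4 groups therefore carried a siRNA and a solvent or drug treatment, each group had 4 libraries, and there were 16 libraries in all. The tables compare the groups in pairs, so each error is the standard error (SE) that the authors computed, and no value of a single library is given. Nothing in the labels says whether the 4 libraries of a group came from separate cultures, so p-values measure only the spread between these libraries, which may be technical.

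Nutlin-3a frees p53 from MDM2, the ligase that marks it for breakdown. p53 is a transcription factor that acts by binding paired half-sites in or near its target genes. Besides arrest and cell death genes, p53 is known to induce enzymes of sugar, amino acid, lipid and electron transfer metabolism. RFX7 is a transcription factor of the RFX family that has been described as acting downstream of p53. The set includes a pair of electron transfer enzymes: FDXR passes electrons from NADPH to the mitochondrial ferredoxins, and TP53I3 (also called PIG3) is a quinone oxidoreductase. TIGAR lowers an activator of phosphofructokinase and so favours the pentose phosphate pathway over glycolysis. GLS2 is a mitochondrial glutaminase and ALDH4A1 catalyses the last step of proline breakdown to glutamate. PANK1 starts coenzyme A synthesis, CPT1C is the brain-type member of the carnitine palmitoyltransferase family, and LPIN1 is a phosphatidate phosphatase. SAT1 acetylates polyamines and SCO2 is a copper chaperone for cytochrome c oxidase.

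The start-site regions of FDXR, PANK1 and GLS2 held the closest letters to a p53 site. They are shown with a repeat in TP53I3 that has been described as p53-responsive. RefSeq promoters (GRCh38.p14, 250 bases before to 50 after a start) were found for 9 of the 10 genes, 16 promoters in all. They were searched on both strands for the p53 consensus, a pair of half-sites of 10 bases with no spacer, 20 bases in all. Capitals mark the matched 20 bases, or in TP53I3 the repeat, and all 4 windows of 30 bases are read 5′ to 3′ on the minus strand.
PANK1, chr10:89645251-89645280: gtggcGGGCAGGACTGGGCATGCTCagtgg
GLS2, chr12:56488112-56488141: cagagccggAGGCTTGCTGGGGCATGCGCt
FDXR, chr17:74872991-74873020: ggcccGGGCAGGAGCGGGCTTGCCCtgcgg
TP53I3, chr2:24084388-24084417: TGCCCTGTCCTGTCCTGCCCTGCCCTGTCC
The PANK1 match had 2 mismatches and lay at -33 to -14 from the start site, with 1 exact half-site. The GLS2 match had 2 mismatches and lay downstream of the start site, at 30 to 49. FDXR had 3 mismatches at -21 to -2, with 1 exact half-site. The best matches of the 6 other genes with an entry had 4 mismatches in LPIN1 and CPT1C, 5 in TP53I3 and ALDH4A1, and 6 in TIGAR and SAT1. LPIN1 and CPT1C, which did not rise with Nutlin-3a, thus had fewer mismatches than TIGAR, which did. More promoters were searched for LPIN1 and CPT1C than for TIGAR, so their best matches cannot be compared evenly. Of 35116 promoters of the same length, 0.649% held a match with at most 2 mismatches, 5.20% one with at most 3 and 26.0% one with at most 4. An exact half-site was held by 6.63% of promoters. Counted by gene, as for the members, the best match had at most 2 mismatches in 0.820% of 27305 genes. It had at most 3 in 6.39% of genes and at most 4 in 29.9%. The TP53I3 stretch is the first 6 units of a run of 15 units of 5 bases (9 TGCCC and 6 TGTCC, 75 bases, chr2:24084343-24084417) in exon sequence of TP53I3 in GENCODE 29. A run of at least 10 such units was found in 1 of 58676 genes there, which was TP53I3. These windows come from the reference genome and were not read in U2OS, and a match is a description of letters only.

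Before the results, the labels were checked against the tables. RFX7 was lower with its siRNA under DMSO in the authors' deposited table, by a log2 fold change of -2.42 ± 0.07 (SE), and under Nutlin-3a by -2.37 ± 0.07. RFX7's sign also served to set the direction of these tables. The p53 targets CDKN1A and MDM2 rose with Nutlin-3a in siControl by 3.24 ± 0.04 and 2.89 ± 0.04 on the log2 scale in the authors' deposited table, and served to set the direction of the Nutlin-3a tables. Base means, the mean normalised counts over the 8 libraries of a comparison, added up to between 27946376 and 35311111 per table. Among osteoblast and osteosarcoma markers, RUNX2, COL1A1, SPARC, ALPL and VIM were well above 100 in every table, COL1A2 was at 11.0 to 13.2, BGLAP was listed in 2 tables at up to 4.25, and SP7 and IBSP were listed in none. EPCAM and CDH1, epithelial markers, had base means of 184 to 214 and 121 to 183, KRT14 was at 47.8 to 73.3 and KRT5 was listed in no table. The blood markers CD3E and HBB were listed in no table, and PTPRC in 1 at 5.21.

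The 10 genes spanned a wide range of levels. Group levels were estimated from each base mean and fold change and expressed as normalised counts per 1000000 (CPM) and per kb of exon (GENCODE 29). Each group was scaled to its own total, so ratios of CPM, here and below, differ somewhat from the deposited fold changes. In siControl with DMSO the highest were TP53I3 at 15.2 CPM per kb, TIGAR at 11.0, FDXR at 9.68 and LPIN1 at 8.24. ALDH4A1 followed at 3.53, SAT1 at 1.93, PANK1 at 0.981 and CPT1C at 0.640. SCO2 was at 0.0849 and GLS2 at 0.00807. With Nutlin-3a in siControl the order at the top became FDXR at 51.5, TP53I3 at 42.2, TIGAR at 31.0 and LPIN1 at 8.34. The remaining order was unchanged, from ALDH4A1 at 4.77 down to GLS2 at 0.0564. These levels carry no spread of their own, so whether neighbours in the order differ was not tested.

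**Figure D1:**
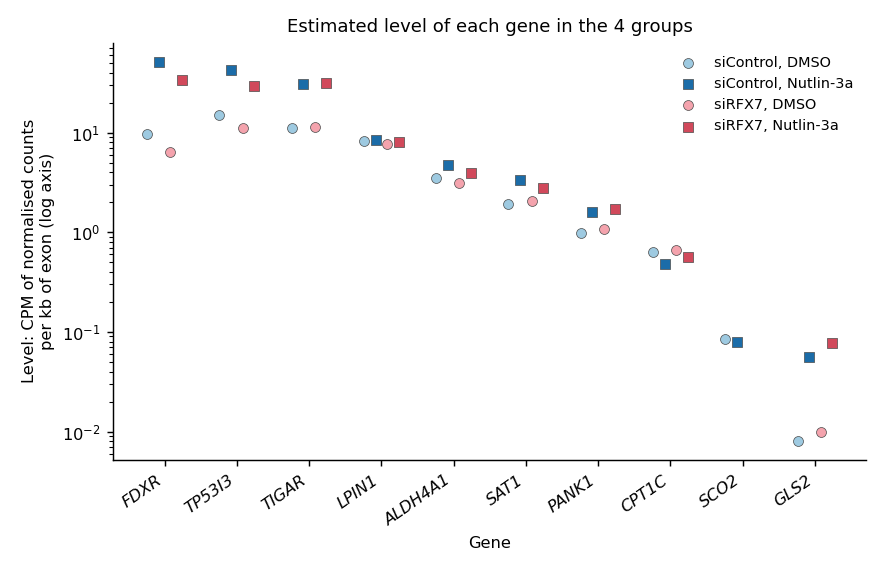
Estimated level of each gene in the 4 groups, in CPM per kb of exon on a log axis; circles are DMSO, squares Nutlin-3a, blue siControl and red siRFX7, each point 1 group of 4 libraries with no error. FDXR rises from 9.68 to 51.5 with Nutlin-3a in siControl, LPIN1 stays near 8, and SCO2 has points for siControl only.

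Nutlin-3a in siControl raised 7 of the 10 genes, lowered CPT1C and left LPIN1 and SCO2 uncalled, at the authors' adjusted p under 0.05 (DESeq2, Benjamini-Hochberg). Over all 23353 genes of that table, 37.9% were called, 18.3% higher and 19.6% lower. Most called genes were well expressed: of 8853 calls, 8004 remained when only genes whose base mean reached 100 were tested. Shares over all genes, here and below, include genes of low count. They are not matched to the members or the lists for level. The median log2 fold change of the 10 genes was 0.71, against 0.01 for all genes. In siRFX7 cells, 9 of the genes were in the table, 7 were higher and none lower, against 39.1% of 21382 genes called (18.7% higher, 20.3% lower). Their median there was 0.62. The genes that rose were the same 7 in both: FDXR, GLS2, TIGAR, TP53I3, PANK1, SAT1 and ALDH4A1. In bulk RNA, a higher level in every cell and a larger share of cells that express a gene cannot be told apart.

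Of the electron transfer enzymes, FDXR (ENSG00000161513, chr17:74862497-74873031, minus strand) rose most. Its level went from 34.8 to 185 CPM with Nutlin-3a in siControl, and from 22.9 to 120 in siRFX7. All these are group estimates, and both Nutlin-3a groups were above both DMSO groups. The rise was 2.37 ± 0.04 (SE) on the log2 scale, or 5.18-fold, in the authors' deposited table for siControl, with an adjusted p listed at 0. In siRFX7 it was 2.34 ± 0.07, with an adjusted p of 4.70e-251 (DESeq2) in the authors' deposited table. TP53I3 (ENSG00000115129, chr2:24077433-24085861, minus strand) went from 35.1 to 97.7 CPM in siControl and from 25.8 to 68.3 in siRFX7. The changes in the authors' deposited tables were 1.44 ± 0.05 and 1.36 ± 0.06, or 2.71-fold and 2.56-fold (DESeq2 adjusted p of 9.05e-188 and 7.91e-125). The TP53I3 gene carries the TGCCC and TGTCC repeat printed above, and the FDXR match above lies just before the RefSeq start site used, inside the GENCODE 29 gene.

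TIGAR (ENSG00000078237, chr12:4307763-4354593, plus strand), the sugar phosphatase, rose about as much as TP53I3. Its estimated level went from 44.3 to 124 CPM in siControl and from 46.2 to 126 in siRFX7, so the siRNA groups lay close together under either treatment. The log2 fold changes in the authors' deposited tables were 1.45 ± 0.05 and 1.40 ± 0.05 (DESeq2 adjusted p of 8.45e-204 and 9.66e-197). In GENCODE 29, 42.6% of TIGAR's exonic bases are shared with the gene AC008012.1 on the same strand, which was in no table. How shared reads were counted is not given in the sources used here.

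The glutamate enzymes rose at very different levels. GLS2 (ENSG00000135423, chr12:56470944-56488414, minus strand) was close to the detection limit, at an estimated 1.20 normalised counts per library with DMSO and 8.13 with Nutlin-3a in siControl. Its log2 fold changes in the authors' deposited tables were 2.77 ± 0.88 in siControl and 2.92 ± 0.84 in siRFX7, with adjusted p of 0.00562 and 0.00195 (DESeq2). The 95% interval in siControl ran from 2.06-fold to 22.4-fold. With a t distribution in place of the normal one, the siControl call was lost (adjusted p = 0.0682). In GENCODE 29, 77.1% of GLS2's exonic bases lie opposite SPRYD4, whose base mean was 836 to 1152 and whose log2 fold change with Nutlin-3a was 0.31 in siControl in the authors' deposited table. The library kit keeps strand, but the strand setting of the counting is not given in the sources used here, and SPRYD4's part in the GLS2 values was not tested. ALDH4A1 (ENSG00000159423, chr1:18871430-18902781, minus strand) went from 13.0 to 17.6 CPM in siControl and from 11.6 to 14.5 in siRFX7. Its rises in the authors' deposited tables were 0.40 ± 0.07 and 0.28 ± 0.08 on the log2 scale (DESeq2 adjusted p of 2.27e-07 and 0.00391), and the second was lost with a t distribution (adjusted p = 0.0600). ALDH4A1 shares 41.1% of its exonic bases with AL080251.1 on the same strand, which was in no table.

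Among the coenzyme A and lipid enzymes, only PANK1 rose. PANK1 (ENSG00000152782, chr10:89579497-89645572, minus strand) went from 7.49 to 12.3 CPM in siControl and from 8.20 to 13.0 in siRFX7. Its log2 fold changes in the authors' deposited tables were 0.67 ± 0.09 and 0.62 ± 0.09, or 1.59-fold and 1.54-fold (DESeq2 adjusted p of 3.19e-13 and 3.73e-10). The microRNA gene MIR107 lies within PANK1 and has no value here. CPT1C (ENSG00000169169, chr19:49690898-49713731, plus strand) fell in siControl from 3.75 to 2.82 CPM, a change of -0.45 ± 0.15 in the authors' deposited table (DESeq2 adjusted p of 0.00755, and 0.0747 with a t distribution). In siRFX7 the CPT1C estimates were 3.91 with DMSO and 3.30 with Nutlin-3a, and its change of -0.29 ± 0.17 was not called in the authors' deposited table (DESeq2 adjusted p = 0.167). LPIN1 (ENSG00000134324, chr2:11677595-11827409, plus strand) was at 97.7 and 98.9 CPM in siControl and at 91.1 and 95.2 in siRFX7, so all 4 groups lay close together. Its changes in the authors' deposited tables were -0.02 ± 0.04 and 0.02 ± 0.04, and its 95% interval in siControl, 0.936-fold to 1.04-fold, excludes a change as large as that of any of the 8 genes of the set called there.

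SAT1 (ENSG00000130066, chrX:23783173-23786226, plus strand), the polyamine acetyltransferase, went from 4.82 to 8.37 CPM in siControl and from 5.12 to 6.90 in siRFX7. The siRNA groups were close under DMSO and further apart under Nutlin-3a. The rises were 0.76 ± 0.11 and 0.39 ± 0.12 on the log2 scale in the authors' deposited tables (DESeq2 adjusted p of 8.96e-11 and 0.00431). The call in siRFX7 was lost with a t distribution (adjusted p = 0.0616).

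SCO2 (ENSG00000130489, chr22:50523568-50525606, minus strand) was at an estimated 3.11 normalised counts per library with DMSO and 2.84 with Nutlin-3a in siControl, and it was in none of the 3 other tables. Its change of -0.13 ± 0.85 in the authors' deposited table gives an interval from 0.287-fold to 2.92-fold, so a change of the size of TIGAR's was not detectable at this depth. In GENCODE 29, 83.9% of its exonic bases are shared with ENSG00000284194 on the same strand, which is also named SCO2 and was in no table. A further gene, the antisense U62317.2, covers 48.8% of them. U62317.2 had base means of 113 to 210 and fell with Nutlin-3a by 0.70 on the log2 scale in siControl in the authors' deposited table. The part of this shared sequence in SCO2's low level was not tested.

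**Figure D2:**
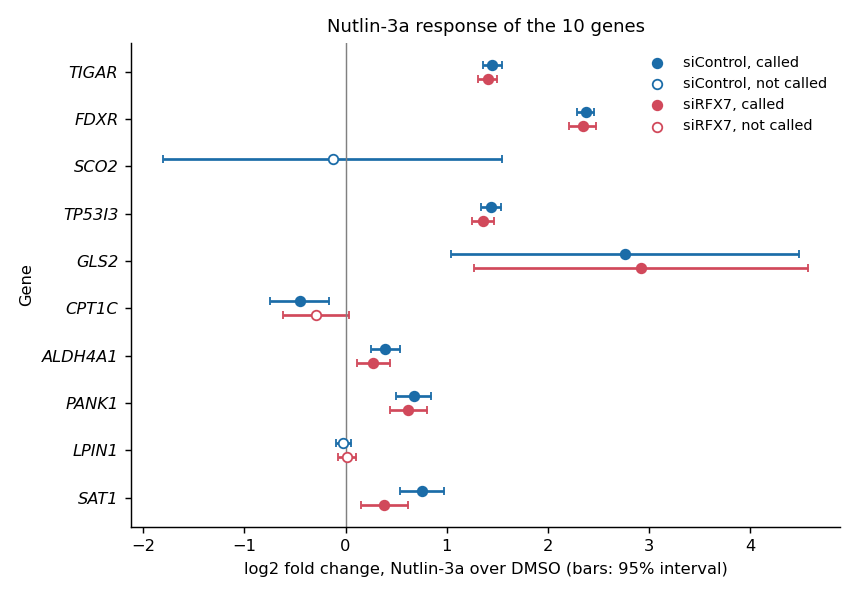
log2 fold change of Nutlin-3a over DMSO for each gene in siControl (blue) and siRFX7 (red); points are the authors' deposited values, bars their 95% intervals, filled points called at an adjusted p under 0.05. FDXR, TIGAR and TP53I3 have narrow bars far from 0, LPIN1 sits at 0, and GLS2 and SCO2, near the detection limit, have wide bars.

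The RFX7 siRNA lowered the electron transfer enzymes under both treatments and raised none of the genes. Under DMSO, 8 of the 10 genes were in the table, and 2 were lower, against 37.4% of 19511 genes called (19.9% higher, 17.5% lower). The percentages given here come from the deposited fold changes, not from the CPM levels above. FDXR fell to 68.8% of siControl, a log2 fold change of -0.54 ± 0.06 in the authors' deposited table (DESeq2 adjusted p of 5.20e-17). TP53I3 fell to 77.0%, a change of -0.38 ± 0.06 in the authors' deposited table (DESeq2 adjusted p of 1.54e-08). Under Nutlin-3a, 9 genes were in the table and 3 were lower, against 32.6% of 20335 genes called (17.2% higher, 15.4% lower). FDXR fell there to 67.5%, a change of -0.57 ± 0.06, and TP53I3 to 72.9%, a change of -0.46 ± 0.04, in the authors' deposited table (DESeq2 adjusted p of 2.34e-22 and 8.12e-23). ALDH4A1 fell to 86.0%, a change of -0.22 ± 0.08 in the authors' deposited table (DESeq2 adjusted p of 0.0158, and 0.108 with a t distribution). Under DMSO ALDH4A1 was not called, at -0.10 ± 0.08 in the authors' deposited table (DESeq2 adjusted p = 0.343). With so few genes, these counts do not set the group as a whole apart from all genes, of which 17.5% and 15.4% were lower.

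For the remaining genes the effect of the RFX7 siRNA was not called. The authors' deposited tables put TIGAR at 0.12 ± 0.05 under DMSO and 0.08 ± 0.04 under Nutlin-3a (DESeq2 adjusted p of 0.0631 and 0.153). The first passed when p-values were adjusted only over genes whose base mean reached 100 (adjusted p = 0.0478), and this small difference was upwards, opposite to that of FDXR and TP53I3. PANK1 was at 0.19 ± 0.10 and 0.14 ± 0.09, CPT1C at 0.11 ± 0.14 and 0.27 ± 0.17, and LPIN1 at -0.04 ± 0.04 and 0.00 ± 0.04 in the authors' deposited tables. The authors' deposited tables put SAT1 at 0.15 ± 0.12 under DMSO and -0.22 ± 0.11 under Nutlin-3a (DESeq2 adjusted p of 0.361 and 0.112). GLS2, listed under Nutlin-3a only, was at 0.56 ± 0.53 in the authors' deposited table. The Nutlin-3a and siRFX7 tables share groups pairwise, so the values of one gene in them are not independent.

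**Figure D3:**
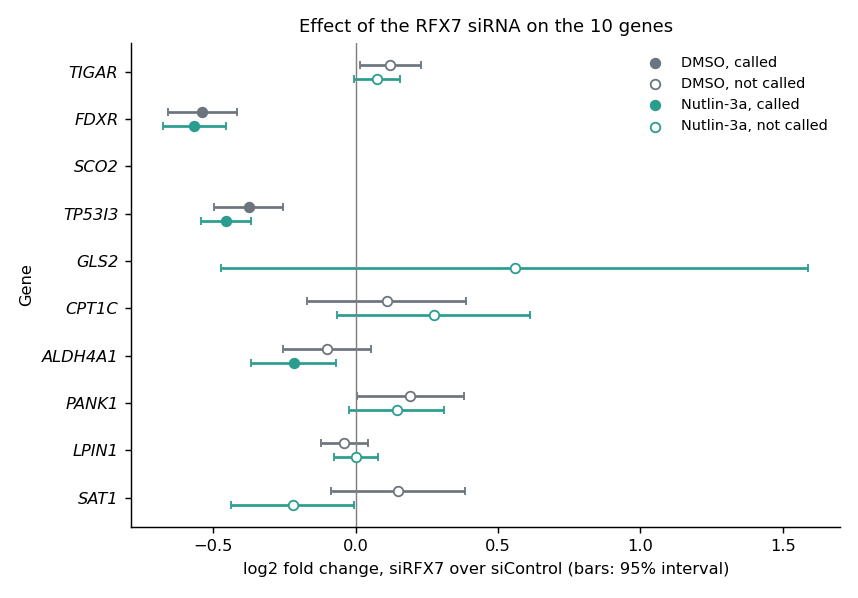
log2 fold change of siRFX7 over siControl for each gene under DMSO (grey) and Nutlin-3a (green); points are the authors' deposited values, bars their 95% intervals, filled points called at an adjusted p under 0.05. FDXR and TP53I3 lie below 0 under both treatments, and SCO2, in neither table, has no point.

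Whether the Nutlin-3a response differed between siRNAs was tested as the siRFX7 response minus the siControl response, from tables with no library in common. None of the 9 genes in both tables was called (two-sided normal test, Benjamini-Hochberg over 21339 genes), and none with a t distribution. Over all genes 0.937% were called, 0.173% higher and 0.764% lower. At an unadjusted p under 0.05 there was 1 gene, SAT1, against 6.32% of all genes. SAT1's difference was -0.37 ± 0.16 (95% interval -0.69 to -0.05, unadjusted p = 0.0228, adjusted p = 0.575). Its adjusted p was 0.382 or higher under each alternative. FDXR's difference was -0.03 ± 0.08 (interval -0.19 to 0.13) and that of TP53I3 was -0.08 ± 0.07 (-0.23 to 0.06). So the lower level of both with siRFX7 was of similar size under DMSO and Nutlin-3a, within these intervals. TIGAR was at -0.05 ± 0.07 (-0.18 to 0.08), PANK1 at -0.05 ± 0.13 (-0.30 to 0.20), ALDH4A1 at -0.12 ± 0.11 and LPIN1 at 0.04 ± 0.06. CPT1C was at 0.16 ± 0.22 and GLS2 at 0.16 ± 1.22, whose interval from 0.213-fold to 5.82-fold is too wide to tell whether its responses differed.

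**Figure D4:**
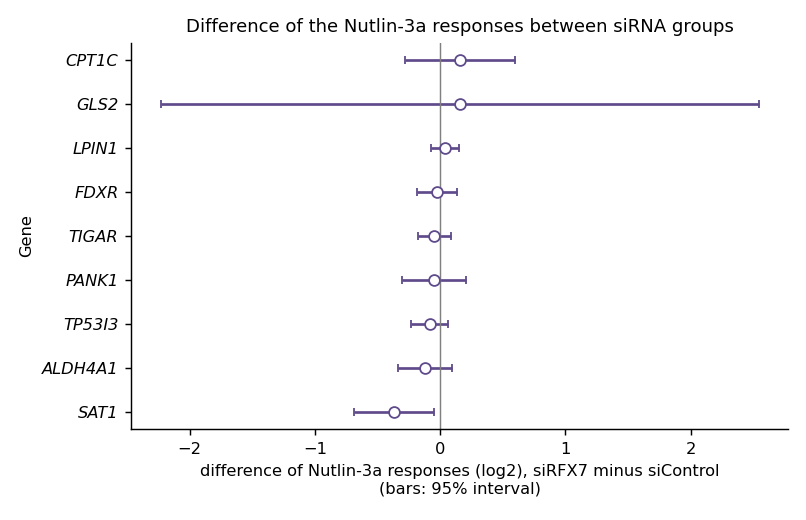
Difference of the Nutlin-3a responses, siRFX7 minus siControl, on the log2 scale for the 9 genes in both tables, with 95% intervals; open points were not called at an adjusted p under 0.05. The intervals of 8 genes cross 0, that of SAT1 ends at -0.05, and that of GLS2 spans more than 4 log2 units.

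Lists of partner genes were written for the 10 pathways, and 124 of their genes were in the siControl Nutlin-3a table. Of these, 29 were higher and 37 lower, beside 18.3% and 19.6% of all genes, shares that are not matched for level. Their median was -0.04 against 0.01 for all genes. In the pentose phosphate list of TIGAR, 4 of 14 genes rose and 4 fell. PGLS, the lactonase of the pathway, was at 0.53 ± 0.08 and RPIA, the ribose isomerase, at -0.37 ± 0.06 in the authors' deposited table. In the ferredoxin and iron-sulfur list of FDXR, 1 of 16 rose, the scaffold ISCU, at 0.71 ± 0.05, and 6 fell, among them the vitamin D hydroxylase CYP24A1 at -1.13 ± 0.07 in the authors' deposited table. Of the 10 genes set beside TP53I3, quinone reductases and other enzymes, 4 rose and 1 fell, with NQO1 at 0.41 ± 0.04 in the authors' deposited table. The cytochrome c oxidase assembly list of SCO2 had 1 of 15 genes higher and 6 lower, with SURF1 at 0.32 ± 0.07 and CMC2 at -0.45 ± 0.07 in the authors' deposited table.

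In the glutamine and glutathione list of GLS2, 3 of 14 genes rose and 4 fell. The glutathione synthetase GSS rose by 0.42 ± 0.05 in the authors' deposited table. The carnitine and fatty acid oxidation list of CPT1C had 5 of 13 genes higher and 2 lower: the inner-membrane transferase CPT2 rose by 0.52 ± 0.07 and the peroxisomal CROT by 0.55 ± 0.07 in the authors' deposited table. CPT1A, the liver-type relative of CPT1C and named after its values were seen, was at -0.04 ± 0.10 there. In the proline list of ALDH4A1, 1 of 6 rose and 1 fell. The riser was PRODH, the first enzyme of proline breakdown, at 2.51 ± 0.36 with a base mean of 24.5 in the authors' deposited table; it was below the base mean of 100 used for naming and was chosen after its values were seen. ALDH18A1, which acts in proline synthesis, fell by 0.19 ± 0.04 in the authors' deposited table.

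Of the 10 coenzyme A genes set beside PANK1, 3 rose and 5 fell. Among its paralogs PANK2 was at 0.25 ± 0.06 and PANK4 at -0.26 ± 0.08 in the authors' deposited table. Of 13 phosphatidate and triglyceride genes, 2 rose and 3 fell, and the riser with the larger value was LPIN3, a paralog of LPIN1, at 0.88 ± 0.07 in the authors' deposited table. The polyamine list of SAT1 had 5 of 13 genes higher and 5 lower. Its paralog SAT2 rose by 0.57 ± 0.08 and the spermine oxidase SMOX by 0.37 ± 0.06, while AMD1, AZIN1 and SRM, which act in or promote polyamine synthesis, changed by -0.45, -0.35 and -0.31 in the authors' deposited table. A further list held 20 other metabolic and redox genes described as p53 targets, of which 19 were in the table. In siControl 15 were higher and 1 lower, beside 18.3% and 19.6% of all genes, with a list median of 1.06. TP53INP1 (3.33 ± 0.07), ACER2 (2.24 ± 0.11) and SESN1 (2.09 ± 0.07) led that list in the authors' deposited table, with PRODH, and the sterol synthesis enzyme HMGCS1 fell by 0.28 ± 0.04. AIFM2 and PRODH are in that list and also in a pathway list.

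**Figure D5:**
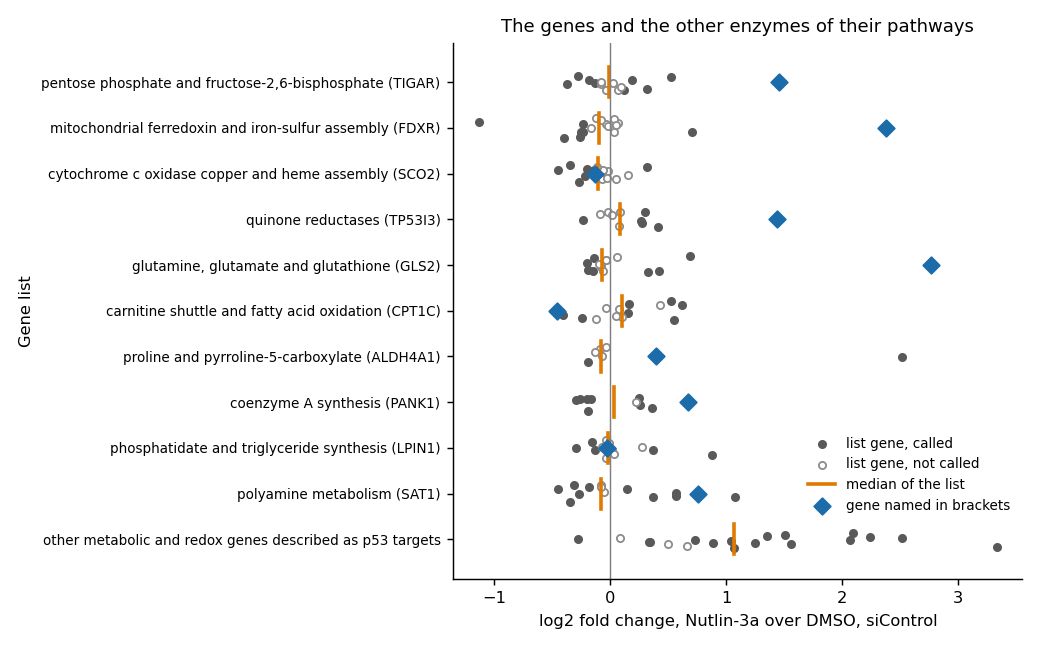
log2 fold change of Nutlin-3a over DMSO in siControl for the genes of each pathway list; filled points were called, open points not, the orange line is the list's median and the diamond the gene named in brackets. The pathway medians lie near 0, while the median of the other genes described as p53 targets is 1.06.

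With the RFX7 siRNA under DMSO, 19 of 121 pathway genes were higher and 45 lower, beside 19.9% and 17.5% of all genes. Under Nutlin-3a 21 of 123 were higher and 33 lower, beside 17.2% and 15.4% of all genes. Because these shares are not matched for level, an excess of called genes in the lists cannot be read from them. The list set beside TP53I3 holds 10 genes, quinone reductases and other enzymes such as MECR and PTGR1. Of these, 7 were lower and none higher under DMSO, with a list median of -0.37 against 0.00 for all genes. Under Nutlin-3a 7 were lower and 1, CRYZ, higher. The lowest was MECR, a mitochondrial fatty acid synthesis enzyme, for which the authors' deposited tables give -1.30 ± 0.08 with DMSO and -1.12 ± 0.08 with Nutlin-3a. PTGR1, a prostaglandin reductase, was at -0.70 ± 0.07 and -0.66 ± 0.07 in the authors' deposited tables. In the iron-sulfur list of FDXR, ISCU was lower, at -0.88 ± 0.06 and -0.86 ± 0.05 in the authors' deposited tables. In the carnitine list no gene was higher, 6 of 13 were lower under DMSO and 5 under Nutlin-3a, led by CROT at -0.75 ± 0.09 and -0.55 ± 0.08 in the authors' deposited tables. The polyamine list of SAT1 was mixed, with 3 of 13 genes higher and 3 lower under DMSO, and 3 higher and 2 lower under Nutlin-3a. SAT2, the paralog of SAT1, was at -0.60 ± 0.10 and -0.55 ± 0.08, and SMOX at 0.38 ± 0.07 and 0.20 ± 0.07, in the authors' deposited tables. SLC3A2, a subunit of amino acid transporters, was at 0.32 ± 0.05 and 0.36 ± 0.05, and SRM, the spermidine synthase, at 0.15 ± 0.04 and 0.24 ± 0.04 in the authors' deposited tables. The glutamine and glutathione list of GLS2 had 6 of 14 genes higher and 3 lower under DMSO, and 5 higher and 2 lower under Nutlin-3a. The cystine transporter SLC7A11 was at 0.41 ± 0.05 and 0.72 ± 0.06, and GCLC, which acts in glutathione synthesis, at -0.18 ± 0.06 and -0.15 ± 0.05 in the authors' deposited tables.

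The genes most like each member were found by the Euclidean distance over the 4 deposited log2 fold changes, among the 12176 genes whose base mean reached 100 in all tables. This is a description over 4 values that share libraries. For FDXR they were RRM2B, a subunit of ribonucleotide reductase, at a distance of 0.376, and PAPLN at 0.395. For TP53I3 they were F8, which encodes a clotting factor, at 0.211 and DDB2, a DNA damage binding protein, at 0.246. For TIGAR they were the kinase PLK3 at 0.0938 and the receptor TLR3 at 0.133. ALDH4A1 lay nearest to PLPP1 (0.0339) and UPRT (0.0349), PANK1 to EHD3 (0.0558) and HOXC13 (0.0587), and SAT1 to PMEPA1 (0.139) and ROBO4 (0.175). LPIN1, which barely changed in any table, lay nearest to ERGIC1 (0.0120) and DEPDC5 (0.0139). CPT1C, GLS2 and SCO2 were below the base mean needed.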

How the data were processed

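Poly(A) RNA of U2OS cells was sequenced in 4 groups of 4 libraries, with a strand-keeping library kit, per the labels' protocols. Per the submitters' processing notes, featureCounts 1.6.5, DESeq2 1.20.0, Trimmomatic 0.39, cutadapt 2.10, SAMtools 1.10 and the hg38 build were used; the aligner, annotation release and strand setting are not given in the sources used here. The deposited files were the authors' 4 DESeq2 tables. The base mean is a deposited signal, the mean normalised read count of 8 libraries. The log2 fold change and its SE, the Wald statistic (a score) and the p-value and adjusted p-value were the authors' deposited values. For each table the Wald statistic, p-values and adjusted p-values were recomputed from the deposited columns and matched. Table directions were set from RFX7, CDKN1A, MDM2 and the closure of the tables (SD 0.00291 on the log2 scale over 19344 genes, against 0.514 if inverted). The call threshold was an adjusted p of 0.05.

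Group levels were derived from base mean and fold change, with equal group sizes; estimates of a group from 2 tables differed by a ratio of at most 1.02. They were scaled to CPM over all genes and divided by GENCODE 29 exon length. The difference of responses used the root of the summed squared SEs, a two-sided normal p and Benjamini-Hochberg adjustment over 21339 genes. It was run on simulated data with normal noise of the size of the deposited SEs, so that run could not check the normal assumption. Named genes were the 10 members, RFX7, CDKN1A and MDM2, the genes of each list called in the difference, up to 3 called genes per direction whose base mean reached 100, the 2 genes most like each member, and genes overlapping a member; others are said to be chosen after their values were seen. The members and lists were chosen with earlier results of these data known. ALOX12, FBP1, PRODH2 and the older symbols FDX1L and PYCRL were in no table. Alternatives were other thresholds, centring, a base mean of at least 100, a t distribution (6 degrees of freedom, 12 for the difference), statistics divided by their robust SD and the difference taken from the siRFX7 tables. A few genes of the lists and markers are not reported here. Python 3.11.15, numpy 2.4.6, pandas 2.3.3 and scipy 1.17.1 were used.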

Additional observations from a re-analysis of the deposited data

Results flagged for a closer look

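The Nutlin-3a response differed between siRNAs for 4 genes of the lists, by the two-sided normal test of the difference, siRFX7 minus siControl. Of 124 pathway genes 1 was called. In the list of other genes described as p53 targets, 1 of 19 was higher and 2 were lower. Over all genes 0.937% were called, 0.173% higher and 0.764% lower. The cystine transporter SLC7A11 was at 0.31 ± 0.07 on the log2 scale (adjusted p = 0.00398), with Nutlin-3a responses of 0.64 in siRFX7 and 0.33 in siControl. RRM2B was at 0.26 ± 0.07 (adjusted p = 0.0123), with responses of 2.33 and 2.07. The stress-induced sestrin SESN2 was at -0.32 ± 0.07 (adjusted p = 0.00244), with responses of 1.24 and 1.56. TP53INP1 was at -0.46 ± 0.10 (adjusted p = 0.00143), with responses of 2.87 and 3.33. With a t distribution none of the 4 was called (adjusted p of 0.221, 0.306, 0.203 and 0.182 in this order). The cause was not tested.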

How the results depend on the processing

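No paired analysis was possible because the tables hold no value of single libraries, and leaving out a library could not be run for that reason. Of 313 single-gene values recomputed under the alternatives, 284 kept their side of the threshold, 28 lost a call, 1 gained one and no called value changed sign. These counts were partly fixed in advance. Stricter thresholds could only remove calls, and only centring and the difference from the siRFX7 tables altered a fold change. That difference is nearly the same quantity as the main one (SD of the gap 0.00291). Centring on the median of genes whose base mean reached 100 moved LPIN1, not called, across 0: with Nutlin-3a in siControl to 0.0055 and with siRFX7 under Nutlin-3a to -0.010. A log2 size of at least 1 left 4 of the 10 genes called with Nutlin-3a in siControl (from 8), 4 in siRFX7 (from 7), and 0 with siRFX7 under DMSO (from 2) and 0 under Nutlin-3a (from 3). Over all genes it left 929 of 8853, 862 of 8355, 299 of 7288, 298 of 6625 and, for the difference, 14 of 200. A size of at least 0.25 left 4501 and 4020 for siRFX7 under DMSO and Nutlin-3a, and a t distribution left 4260 and 3524, and 32 for the difference. An adjusted p under 0.01 left 125 for the difference and ended the siRFX7 call of ALDH4A1 under Nutlin-3a, as did a size of at least 0.25. Low counts limit GLS2 and SCO2, which a base mean of at least 100 leaves out.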

Other observations

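Within the list of other genes described as p53 targets, the siRFX7 effect went both ways. By the calls of the authors' deposited tables, 2 of 17 were higher and 5 lower under DMSO, beside 19.9% and 17.5% of all genes. Under Nutlin-3a 2 of 19 were higher and 10 lower, beside 17.2% and 15.4% of all genes. The 2 higher were the sestrins: SESN1 at 0.43 ± 0.09 and 0.42 ± 0.05, and SESN2 at 0.48 ± 0.05 and 0.17 ± 0.05, on the log2 scale. RRM2B, the nearest gene to FDXR by distance, was at -0.74 ± 0.05 under DMSO and -0.48 ± 0.05 under Nutlin-3a. The carboxylesterase CES2 was at -0.31 ± 0.06 and -0.31 ± 0.05, and AIFM2, a coenzyme Q reductase, at -0.29 ± 0.05 and -0.14 ± 0.05. SOD2, the mitochondrial superoxide dismutase, was at -0.39 ± 0.07 under Nutlin-3a and, not called, at -0.14 ± 0.06 under DMSO.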
